A study of Mus musculus with 9 samples.

Results

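The 4 genes described here, Oxct1, Bdh1, Acat1 and Slc16a1, encode 3 mitochondrial enzymes that turn ketone bodies into acetyl-CoA and the membrane carrier that moves ketone bodies across the cell surface. They were chosen by symbol, and are 4 of the 22851 genes in the deposited count matrix. RNA from heart (myocardium) of mice labelled C57BL/6 (C57BL/6J in the methods) was sequenced in 9 libraries, 3 for each of 3 groups. The mice were male and 6 to 8 weeks old at the start, and those of the control group (CK) received citrate buffer. The diabetic cardiomyopathy model group (DCM) received a single 180 mg/kg dose of streptozotocin, which destroys insulin-producing cells, followed by 12 weeks on normal diet. The spermine group (SPM) also received streptozotocin. Its mice were given spermine, a polyamine, at 1 mg/kg, daily for 2 weeks before streptozotocin and then every other day for 12 weeks. How alike the diabetes of DCM and SPM was in severity was not tested here. All 6 DCM and SPM libraries thus come from streptozotocin-treated mice, and no library comes from mice given spermine alone. By the study's methods, the mice were fasted overnight before tissue was taken, so no group is a fed baseline.

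Ketone bodies are made mainly in liver, where Bdh1 reduces acetoacetate to beta-hydroxybutyrate. Heart is a major consumer. There Slc16a1 carries ketone bodies and lactate into the cell, Bdh1 oxidises beta-hydroxybutyrate to acetoacetate, Oxct1 moves coenzyme A from succinyl-CoA onto acetoacetate, and the thiolase Acat1 splits the product into acetyl-CoA for the citric acid cycle. Insulin deficiency raises the supply of fatty acids and ketone bodies, and liver itself has very little Oxct1.

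Oxct1 was lower in both diabetic groups than in CK, Bdh1 was lowest in SPM, Slc16a1 was slightly higher in SPM, and no change in Acat1 passed the test. A gene is called a differentially expressed gene (DEG) here when its Benjamini-Hochberg adjusted p in edgeR's quasi-likelihood test was under 0.05 and its fold change was at least 1.5. In DCM compared to CK, 1 of the 4 genes was a DEG, Oxct1, which was lower, and 2.31% of the 14402 genes tested were DEGs that were lower. In SPM compared to DCM, 1 of the 4 was a DEG, Bdh1, also lower, against 0.89% of 14493 genes. In SPM compared to CK, both Oxct1 and Bdh1 were lower DEGs, 2 of the 4, against 4.12% of 14574 genes. Any pair of these comparisons shares the libraries of 1 group, so the 3 are not independent. The share of DEGs in either direction was 4.34%, 3.59% and 9.21%.

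Total counts per library lay between 29901300 and 39718680. Of 10 cardiomyocyte markers 8 were analysed, led by Myh6, Myl2 and Tnnt2, and all 8 were above 1 CPM (counts scaled to library size) in every library. Their sum was 43567 to 48583 CPM for CK, 40866 to 48453 for DCM and 36183 to 41181 for SPM. Myh6, the largest part of it, was at 22672 to 25834 CPM for CK and 13958 to 20244 for SPM. Tnnt2 went the other way, at 4840 to 5246 CPM for CK and 5553 to 6113 for SPM. None of the 8 markers was a DEG in any comparison. The extraction protocol speaks of retinas, but 4 retina markers, led by Sag, Gnat1 and Nrl, summed to 0.292 to 1.49 CPM. The study's methods describe a library both as RNA from 1 mouse and as RNA pooled from 6 hearts, so the p-values measure the spread between these libraries. SPM replicate 2 stood close to a mixture of SPM replicates 1 and 3. With 44.0% of the first, the median squared deviation of its counts from that mixture was 0.908 times that of counting noise alone. The next lowest of 252 combinations of 3 libraries gave 2.41. The fold changes of the 4 genes in SPM, and the calls on other pathway genes, are therefore also given without SPM replicate 2. The 12 liver markers, led by Alb, Ahsg and Cyp2e1, summed to 448.8, 231.7 and 53.8 CPM in SPM replicates 1, 2 and 3, against 43.2 to 51.2 in DCM and 23.9 to 113.5 in CK, and their part in any result below was not tested. The 6 fibroblast markers, led by Dcn, Col3a1 and Col1a2, summed to 1969 to 2062 CPM for CK, 1332 to 1423 for DCM and 1588 to 1648 for SPM. They did not move together. Col3a1 was at 482.6 to 505.6, 157.0 to 187.6 and 109.7 to 235.9 CPM in these groups. Dcn was at 750.6 to 861.7, 746.9 to 794.6 and 908.4 to 1080 CPM. The 7 macrophage markers, led by Lyz2, Csf1r and C1qa, summed to 685.5 to 915.0, 547.5 to 659.4 and 659.9 to 1146 CPM. Mitochondrial genes took 13.7% to 16.2% of counts for CK, 15.5% to 18.9% for DCM and up to 21.1% for SPM, whose 3 libraries all lay above DCM, and leaving them out of the library sizes changed no call on the 4 genes.

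The stretches of 150 bases that lie 220 to 71 bases before the annotated start are shown for Oxct1, Bdh1 and Slc16a1, the 3 of the 4 genes that matched the promoter table, which Acat1 did not. They set the starts of Oxct1 and Bdh1, both lower in SPM than in CK, beside that of Slc16a1. They come from RefSeq on GRCm38.p6 and are written on the plus strand, along which all 3 genes run. Capitals mark an E-box (CACGTG), which begins 200 bases before the start of Slc16a1.
Slc16a1: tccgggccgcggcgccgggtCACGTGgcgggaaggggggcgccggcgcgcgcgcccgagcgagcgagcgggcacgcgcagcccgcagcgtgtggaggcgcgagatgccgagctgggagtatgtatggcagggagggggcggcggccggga
Oxct1: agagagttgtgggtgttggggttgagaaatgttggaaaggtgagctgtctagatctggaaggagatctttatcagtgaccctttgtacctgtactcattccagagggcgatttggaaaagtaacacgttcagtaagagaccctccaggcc
Bdh1: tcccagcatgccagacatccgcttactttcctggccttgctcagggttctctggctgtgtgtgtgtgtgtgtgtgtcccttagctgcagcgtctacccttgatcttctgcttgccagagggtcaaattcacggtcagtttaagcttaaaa
The Slc16a1 stretch (chr3:104638444-104638593) was 80.0% G and C, the Oxct1 stretch (chr15:4026208-4026357) 47.3% and the Bdh1 stretch (chr16:31422077-31422226) 51.3%. The Oxct1 stretch lies within an exon of BC037032, a noncoding transcript on the opposite strand. The nuclear receptor half-site AGGTCA, its direct repeat AGGTCANAGGTCA (DR1) and the E-box were searched on both strands of windows from 250 bases before to 50 bases after each start, of which the 3 genes have 4. The E-box in Slc16a1 was the only match in these windows, and any DR1 also holds the half-site. Over all 32851 promoter windows of that length, 16.3% held the half-site, 0.0396% the DR1 and 7.15% the E-box.

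Oxct1, succinyl-CoA:3-oxoacid CoA transferase, the enzyme that commits acetoacetate to oxidation, was lower in both diabetic groups than in CK. The gene (ENSMUSG00000022186) lies on chromosome 15 from 4026383 to 4155344 on the plus strand in GENCODE M21 on GRCm38. Its level after TMM normalization was 882.3, 880.4 and 990.2 CPM in CK replicates 1 to 3. The DCM libraries gave 539.8, 647.1 and 625.6 CPM, and the SPM libraries 418.4, 497.4 and 578.2 CPM. Every DCM and SPM library was thus below every CK library, whereas the highest SPM library lay within the range of DCM. The means were 917.6 ± 62.9, 604.2 ± 56.8 and 498.0 ± 79.9 CPM (SD, n = 3 each) in CK, DCM and SPM. Oxct1 fell by 0.60 (SE 0.09) on the log2 scale in DCM compared to CK, that is 1.52-fold, just past the fold limit (edgeR adjusted p = 0.00102). The log2 fold change went under that limit, to -0.54 without CK replicate 3, -0.52 without DCM replicate 1 and -0.57 after a correction for GC content, with edgeR adjusted p from 0.00116 to 0.00465, and the adjusted p over all alternatives of this comparison ran from 2.0e-10 to 0.00613.

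Against CK, Oxct1 in SPM was 1.85-fold lower, a log2 fold change of -0.89 (SE 0.11, edgeR adjusted p = 0.00146). It was a DEG under all 17 alternatives, with -0.88 without SPM replicate 2, though those that only loosen the fold limit could not lose the call. Spermine-treated and untreated diabetic hearts differed less. The log2 fold change of Oxct1 in SPM compared to DCM was -0.28 (95% interval -0.54 to -0.02, edgeR adjusted p = 0.115), and it was -0.28 without SPM replicate 2. The interval leaves room for a decrease of nearly the size seen between DCM and CK.

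Oxct1 had 13594 to 31559 counts per library, so counting error was small beside the spread between libraries. BC037032 shares 467 exon bases with it on the opposite strand and had 1269 counts over all 9 libraries. Whether reads were counted by strand is not stated.

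**Figure D1:**
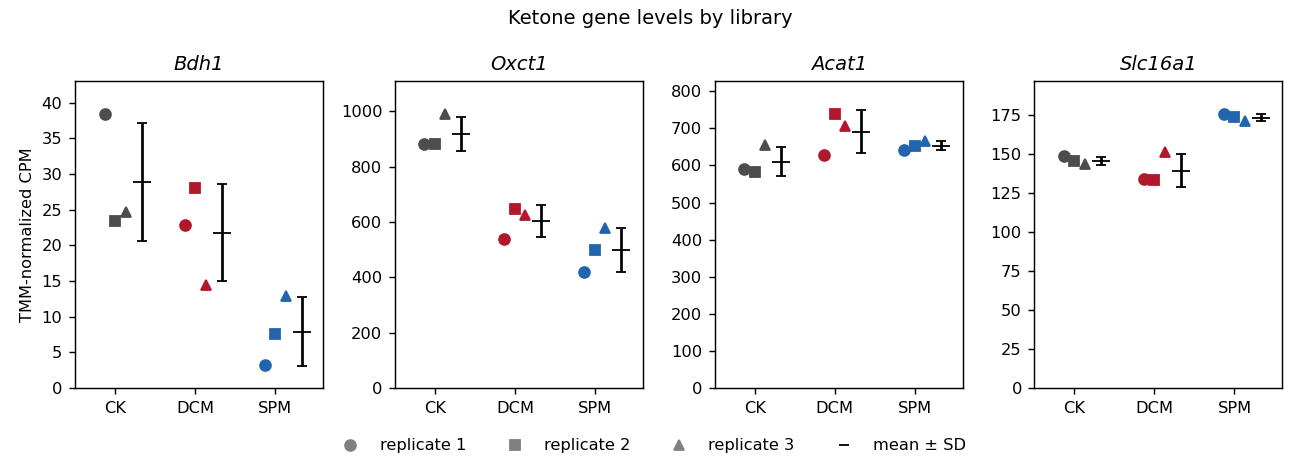
Normalized level of each of the 4 genes in every library, in CPM on linear axes, with 3 points per group and the mean with its SD beside them. Oxct1 is at 880.4 to 990.2 CPM in CK and at 418.4 to 647.1 in all DCM and SPM libraries, Bdh1 is at 3.26 to 12.9 in SPM and at 14.5 or above elsewhere, Acat1 overlaps between all groups and Slc16a1 is highest in the 3 SPM libraries.

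Bdh1, beta-hydroxybutyrate dehydrogenase, which interconverts the 2 main ketone bodies, was lowest in SPM. The gene (ENSMUSG00000046598) lies on chromosome 16 from 31422280 to 31458901 on the plus strand. Its level in CK was 38.4, 23.4 and 24.7 CPM. The DCM libraries gave 22.8, 28.0 and 14.5 CPM, and the SPM libraries 3.26, 7.53 and 12.9 CPM. CK and DCM overlapped, and all 3 SPM libraries lay below all of them, although SPM replicate 3 was close to DCM replicate 3. The means were 28.9 ± 8.30, 21.8 ± 6.80 and 7.89 ± 4.82 CPM (SD, n = 3 each). Bdh1 had the widest relative spread of the 4 genes, with 106, 234 and 396 counts in the SPM libraries and 495 to 1205 in the others.

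Compared to CK, Bdh1 in SPM was 3.67-fold lower, a log2 fold change of -1.88 (SE 0.39, edgeR adjusted p = 0.0102). It remained a DEG under all 17 alternatives of this comparison, of which the looser fold limits could not lose it. Without SPM replicate 2 it had a log2 fold change of -1.84 and an edgeR adjusted p of 0.0406, the highest of a range that began at 0.00168. Compared to DCM it was 2.76-fold lower, a log2 fold change of -1.47 (SE 0.38, 95% interval -2.30 to -0.63, edgeR adjusted p = 0.0292). That call was lost without SPM replicate 2 (-1.43, adjusted p = 0.0835), without DCM replicate 1 (-1.44, adjusted p = 0.093) and without DCM replicate 2 (-1.25, adjusted p = 0.135), and also with DESeq2, limma on FPKM and the GC correction. It held in 11 of 17 alternatives, whose adjusted p ran from 0.00141 to 0.135. The looser fold limits, which reuse the reported fit and could not lose the call, are counted among the 11. All of these fits gave a lower level in SPM.

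The change of Bdh1 between DCM and CK was small beside its spread, with a log2 fold change of -0.41 (95% interval -0.88 to 0.07, edgeR adjusted p = 0.278). It was a DEG in 0 of 17 alternatives, whose adjusted p ran from 0.0050 (edgeR without a low-count filter, -0.40) to 0.695. With single libraries left out the log2 fold change ran from -0.62 to -0.15. Within SPM, Bdh1 and Oxct1 were both lowest in replicate 1 and highest in replicate 3. From replicate 1 to 3 the sums of liver and macrophage markers fell. Those of cardiomyocyte, fibroblast, erythroid and endothelial markers rose. SPM replicates 1 and 3 thus differed in markers of several tissues and cell types, and the part of any of these was not tested. The remaining SPM library stood close to a mixture of SPM replicates 1 and 3, as given above. Its place between them was therefore largely set in advance, and the shared order adds nothing to the difference between replicates 1 and 3. In tissue RNA, fewer cells of a type and less RNA per cell cannot be told apart. An antisense gene, Gm15743, shares 533 exon bases with Bdh1 and was not analysed here.

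**Figure D2:**
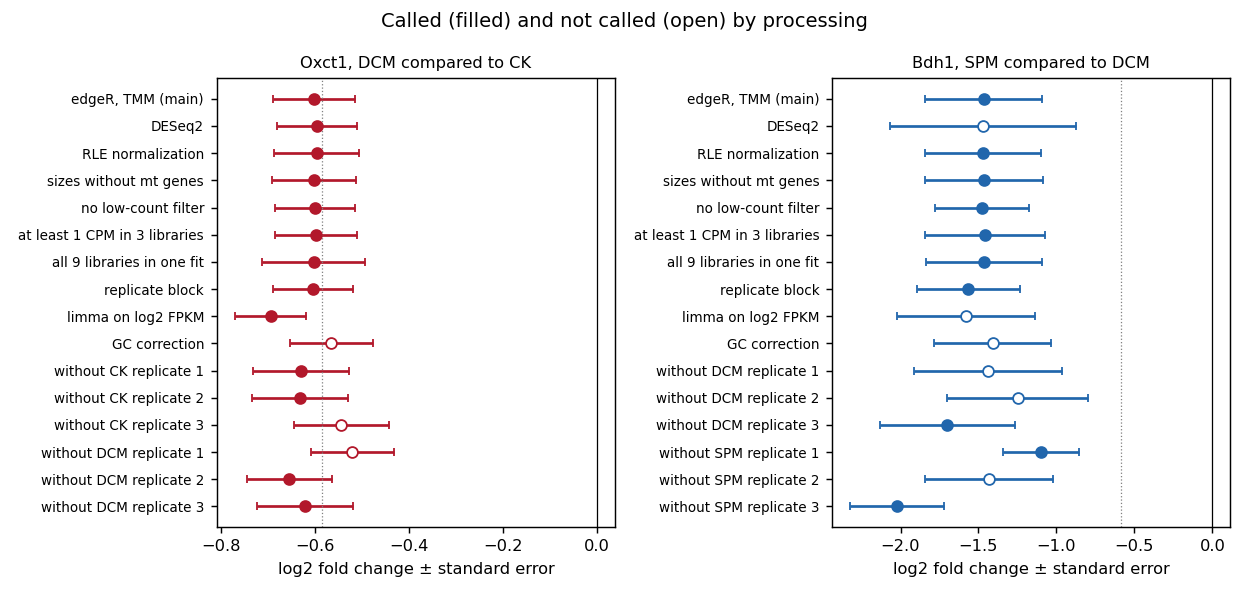
Log2 fold change with its standard error of Oxct1 in DCM compared to CK (left) and of Bdh1 in SPM compared to DCM (right), for the fit as reported, the alternatives other than those of the fold limit and each library left out, with filled points for DEGs, open points for the rest and a dotted line at the 1.5-fold limit. The 3 open Oxct1 points sit just short of the line, at -0.57, -0.54 and -0.52, and the 6 open Bdh1 points, at -1.58 to -1.25, are all past the line and missed the adjusted p.

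**Figure D3:**
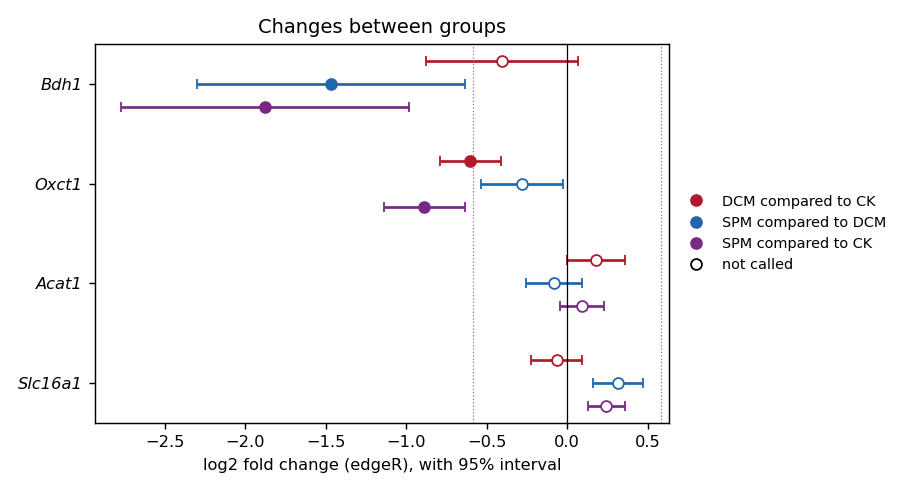
Log2 fold changes of the 4 genes in the 3 comparisons, as points with 95% intervals from edgeR, filled for DEGs and open for the rest, with dotted lines at the 1.5-fold limit. Oxct1 lies below 0 in all 3 comparisons and past the limit against CK, Bdh1 is lowest in both comparisons with SPM, Acat1 stays near 0 and Slc16a1 is at 0.31 and 0.24 in both comparisons with SPM.

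Acat1, the mitochondrial acetoacetyl-CoA thiolase, which also acts in isoleucine breakdown, did not pass the test in any comparison. The gene (ENSMUSG00000032047) lies on chromosome 9 from 53580522 to 53610382 on the minus strand. Its level in CK was 591.3, 583.5 and 655.5 CPM. The DCM libraries gave 626.8, 738.7 and 706.5 CPM, and the SPM libraries 642.4, 652.7 and 664.8 CPM. All 3 groups overlapped, and the SPM libraries were the closest to one another. The log2 fold change of Acat1 was 0.18 in DCM compared to CK (edgeR adjusted p = 0.21, 95% interval to 0.36), -0.08 in SPM compared to DCM (adjusted p = 0.493, interval -0.25 to 0.09) and 0.09 in SPM compared to CK (adjusted p = 0.273, interval -0.04 to 0.23). Without SPM replicate 2 the comparisons of SPM with DCM and with CK gave -0.08 and 0.10. These intervals hold no change of 1.5-fold in either direction.

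Slc16a1, monocarboxylate transporter 1, was higher in SPM than in both other groups by less than the fold limit. The gene (ENSMUSG00000032902) lies on chromosome 3 from 104638668 to 104658462 on the plus strand. Its level in CK was 148.3, 145.5 and 143.2 CPM. The DCM libraries gave 133.6, 133.1 and 151.2 CPM, and the SPM libraries 175.5, 173.5 and 170.7 CPM. All 3 SPM libraries lay above the 6 others, and CK and DCM overlapped. Slc16a1 was 1.24-fold higher in SPM than in DCM, a log2 fold change of 0.31 (SE 0.07, edgeR adjusted p = 0.0198). It was 1.18-fold higher in SPM than in CK, a log2 fold change of 0.24 (SE 0.05, edgeR adjusted p = 0.00945).

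An adjusted p under 0.05 without the fold limit was found for 10.4% of genes in DCM compared to CK, 16.6% in SPM compared to DCM and 27.4% in SPM compared to CK, so Slc16a1 was 1 of many genes with such a p in SPM. The increase of Slc16a1 was not past the test without SPM replicate 2 (0.31, edgeR adjusted p = 0.0987, and 0.25, adjusted p = 0.067). A correction for GC content, which is 42.9% in the longest Slc16a1 transcript, brought the log2 fold changes to 0.075 (edgeR adjusted p = 0.514) and 0.045 (adjusted p = 0.664), within ranges of 0.000991 to 0.514 and 0.000433 to 0.664 over the alternatives. In DCM compared to CK the log2 fold change was -0.06 (95% interval -0.22 to 0.09, edgeR adjusted p = 0.651).

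Red blood cell precursors and endothelium also carry Slc16a1. Of 5 erythroid markers, led by Hbb-bs, Hba-a1 and Hbb-bt, 4 were lower DEGs in SPM compared to DCM and 5 in SPM compared to CK, with sums of 1542 to 3621 CPM for CK, 1330 to 3284 for DCM and 759.1 to 1295 for SPM. The 6 endothelial markers, led by Cdh5, Pecam1 and Kdr, summed to 1774 to 2036 CPM for CK, 1655 to 1814 for DCM and 1541 to 1690 for SPM. Both sums were thus lowest in the group where Slc16a1 was highest, with an overlap between DCM and SPM in the endothelial sum. The endothelial markers did not move together. Cdh5 was at 506.4 to 606.9 CPM for CK, 485.8 to 570.4 for DCM and 410.5 to 458.8 for SPM. Pecam1 was at 386.0 to 432.5, 433.4 to 487.4 and 431.0 to 438.0 CPM, so it was not lowest in SPM. Macrophage markers went with Slc16a1 between DCM and SPM, where 5 of 7 were higher DEGs. Their sums were 547.5 to 659.4 CPM for DCM and 659.9 to 1146 for SPM. No macrophage marker was a DEG in SPM compared to CK. The part of these cell types in the Slc16a1 values was not tested.

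The groups of libraries did not overlap for 1 of the 4 genes in DCM compared to CK, 2 in SPM compared to DCM and 3 in SPM compared to CK, where 29.3%, 39.2% and 46.3% of all genes tested did not overlap. The median log2 fold change over the 4 genes was -0.24, -0.18 and -0.40 in the 3 comparisons, and that of all genes tested was -0.0025, 0.0058 and 0.0022.

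Levels of different genes were compared as FPKM, which divides by gene length. In CK, Oxct1 was at 271.7 ± 15.3 FPKM, Acat1 at 187.1 ± 9.85, Slc16a1 at 34.4 ± 0.929 and Bdh1 at 9.54 ± 2.78 (SD, n = 3), in this order in all 3 libraries. In all 6 DCM and SPM libraries Acat1 came first, then Oxct1, then Slc16a1, and Bdh1 last. Oxct1 was at 168.0 ± 12.8 FPKM in DCM and 137.7 ± 22.4 in SPM, and Acat1 at 199.0 ± 13 and 187.0 ± 3.69. By mean FPKM, Oxct1 ranked 223 of 22851 genes in CK, 334 in DCM and 374 in SPM, while Bdh1 ranked 4801, 5693 and 9038.

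The ratio of Oxct1 to Acat1 within a library does not depend on its scaling. This FPKM ratio was 1.44, 1.46 and 1.46 in CK, 0.831, 0.846 and 0.855 in DCM and 0.629, 0.736 and 0.840 in SPM. The CK libraries lay close together and above all others, and SPM replicate 3 was within the DCM range. The ratio of Slc16a1 to Oxct1 was 0.134, 0.132 and 0.115 in CK. The DCM libraries gave 0.197, 0.164 and 0.193, and the SPM libraries 0.334, 0.278 and 0.235. No group overlapped with another in this ratio of carrier to enzyme transcript, which was lowest in CK and highest in SPM. How many other gene pairs set the groups apart in this way was not counted. The ratio of Bdh1 to Oxct1 overlapped between CK and DCM, at 0.0278 to 0.0486 and 0.0259 to 0.0482. These ratios carry no GC correction, which reduced the Slc16a1 changes as given above.

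**Figure D4:**
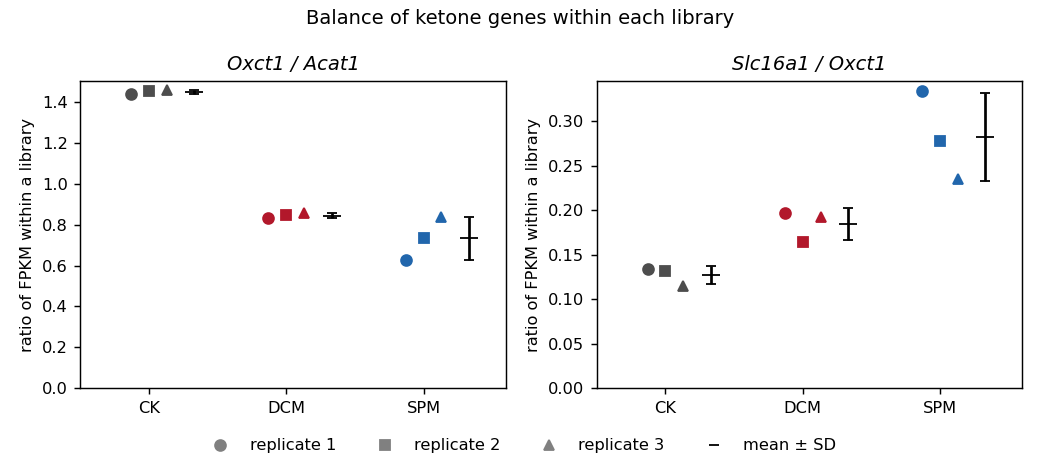
Ratios of FPKM values within each library for Oxct1 over Acat1 (left) and Slc16a1 over Oxct1 (right), by group, with 1 point per library and the mean with its SD beside them. Oxct1 to Acat1 is at 1.44 to 1.46 in CK and at 0.629 to 0.855 in DCM and SPM, and Slc16a1 to Oxct1 is at 0.115 to 0.134 for CK, 0.164 to 0.197 for DCM and 0.235 to 0.334 for SPM.

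Of 23 further genes of ketone metabolism, monocarboxylate transport, succinyl-CoA metabolism and regulation, 21 were analysed and 15 had enough counts for a test. The 6 others, Hmgcll1, Acat3, Slc5a8, Hcar2, Fgf21 and Foxa2, were too low. In DCM compared to CK, 1 of the 15 was a DEG, Ppara, which was higher, where 2.03% of all genes were higher DEGs. In SPM compared to DCM none was a DEG by edgeR, DESeq2 or limma, although 8 of 15 had an unadjusted edgeR p under 0.05 and 5 an adjusted p under 0.05 with smaller folds. Over all 14493 genes tested in that comparison, 5016 had such an unadjusted p and 16.6% such an adjusted p at any fold. Higher DEGs made up 2.7% of them and lower ones 0.89%. Between SPM and CK, 3 were higher DEGs, Ppara, Ppargc1a and Emb, and 1 was a lower DEG, Aacs, against 5.08% and 4.12% of all genes. The median log2 fold change over the 15 genes was 0.11, -0.06 and 0.06 in the 3 comparisons.

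Among the regulators, Ppara, the nuclear receptor that drives fatty acid oxidation, was at 25.7 ± 5.14 CPM in CK, 39.1 ± 3.40 in DCM and 41.4 ± 5.06 in SPM (SD, n = 3). Its log2 fold change was 0.61 in DCM compared to CK (edgeR adjusted p = 0.00877) and 0.69 in SPM compared to CK (adjusted p = 0.00907). The first of these went under the fold limit without CK replicate 1, CK replicate 2 or DCM replicate 3, and the last without CK replicate 2. Ppargc1a, a coactivator of mitochondrial genes, was at 56.5 ± 5.37, 72.7 ± 4.72 and 96.3 ± 8.52 CPM. The SPM libraries of Ppargc1a lay above all DCM libraries and these above all CK libraries, with a log2 fold change of 0.76 in SPM compared to CK (edgeR adjusted p = 0.00129) and values of 0.37 in DCM compared to CK (adjusted p = 0.0178) and 0.41 in SPM compared to DCM (adjusted p = 0.015). The last of these was 0.12 after the GC correction (edgeR adjusted p = 0.392, in a range of 0.000331 to 0.392 over the alternatives). Sirt3, a mitochondrial deacetylase, had a log2 fold change of -0.28 in SPM compared to DCM (edgeR adjusted p = 0.0235). Without SPM replicate 2, Ppara, Ppargc1a and Aacs were still DEGs in SPM compared to CK, with log2 fold changes of 0.71, 0.76 and -0.68, while for Ppargc1a and Sirt3 in SPM compared to DCM and Bsg in SPM compared to CK the edgeR adjusted p rose to 0.0708, 0.133 and 0.124.

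Of the transport genes, Bsg, the chaperone that brings Slc16a1 to the cell surface, was the most abundant, at 1550 ± 27.9, 1716 ± 268.9 and 1363 ± 23 CPM in CK, DCM and SPM. Its log2 fold change was -0.19 in SPM compared to CK (edgeR adjusted p = 0.0199) and -0.33 in SPM compared to DCM (adjusted p = 0.0528). The GC correction brought these to -0.035 (edgeR adjusted p = 0.694, in a range from 0.00187) and -0.17 (adjusted p = 0.288, in a range from 0.00602). Emb, a relative of Bsg that serves other carriers of this family, was at 5.02 ± 0.911, 5.23 ± 0.746 and 7.78 ± 0.736 CPM, with a log2 fold change of 0.62 in SPM compared to CK (edgeR adjusted p = 0.0226), a call that was lost without CK replicate 1 or 3 and without SPM replicate 1 or 2, with an adjusted p of up to 0.0833. Slc16a6, a carrier for ketone export in liver, did not pass the test, with log2 fold changes from -0.06 to 0.22.

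Aacs, the cytosolic enzyme that sends acetoacetate into lipid synthesis, was at 8.0 ± 0.696, 7.08 ± 1.01 and 5.07 ± 0.124 CPM in CK, DCM and SPM. Its log2 fold change was -0.66 in SPM compared to CK (edgeR adjusted p = 0.00621), so among the enzymes of ketone use outside the 4 genes it was the only DEG. Acat2, the cytosolic thiolase, had log2 fold changes from -0.28 to 0.13, none of which passed the test. The succinyl-CoA genes gave no DEG. Ogdh, a subunit of the complex that makes succinyl-CoA, and Sucla2, a subunit of succinyl-CoA ligase, had the highest FPKM of them in CK and SPM. Their log2 fold changes were 0.11 and -0.21 in DCM compared to CK and -0.29 and 0.05 in SPM compared to DCM. Suclg1, another ligase subunit, which exceeded Sucla2 in DCM with 169.6 against 162.1 FPKM, had a log2 fold change of 0.24 in DCM compared to CK (edgeR adjusted p = 0.0479) with no overlap of the libraries. All 4 genes of this list, whose products make or use the coenzyme A donor of the Oxct1 reaction, had log2 fold changes of smaller size than Oxct1 in both comparisons with CK.

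**Figure D5:**
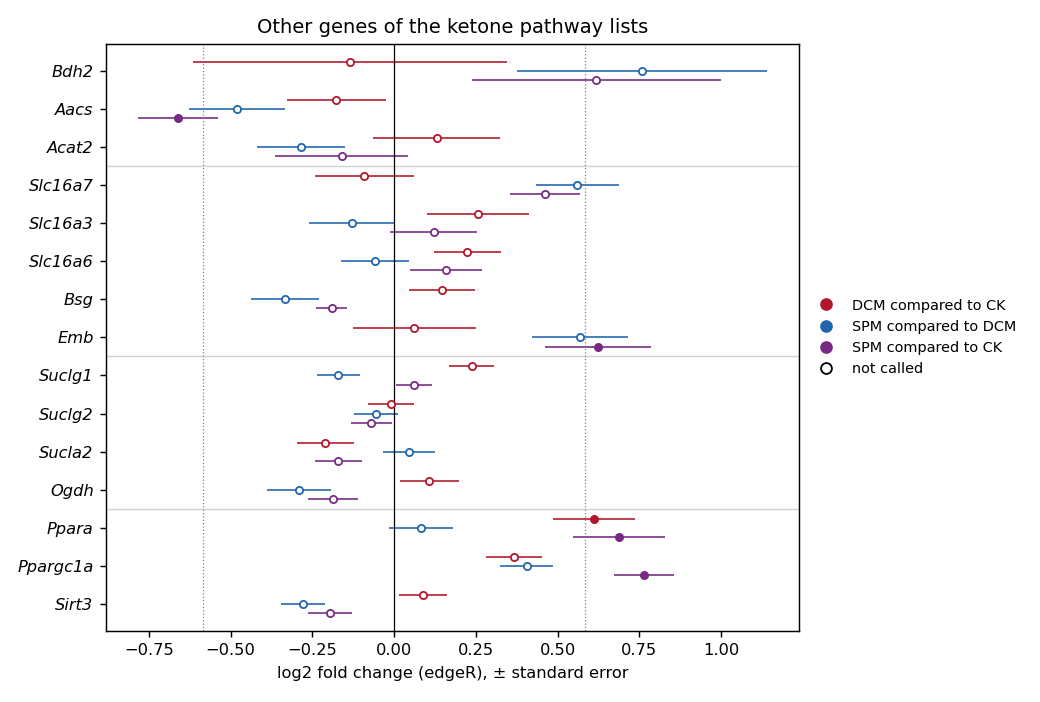
Log2 fold changes with standard errors (edgeR) of the 15 tested genes of the pathway lists, which grey lines set apart, in the 3 comparisons, with filled points for DEGs, open points for the rest and dotted lines at the 1.5-fold limit. Ppara is at 0.61 and 0.69 and filled in both comparisons with CK, Aacs is the only filled point below 0, and the genes of succinyl-CoA metabolism stay within -0.29 and 0.24.

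The genes whose normalized log2 CPM was most like that of each of the 4 genes over the 9 libraries, among 14898 genes, were listed as a description. For Oxct1 these were Mlec (Pearson r = 0.986), Hdlbp (0.985) and Apol11b (0.980), and for Bdh1 they were Kank2 (0.986), Ltbp3 (0.985) and Mrpl4 (0.985). For Acat1 they were Lonp2 (0.970), Pcnx (0.966) and Ipo5 (0.966), and for Slc16a1 they were Mtss1 (0.985), Rtn4 (0.982) and Gpatch8 (0.981). The points share the 3 groups and the scaling of each library. Among the 4 genes themselves r was 0.80 between Bdh1 and Oxct1 and -0.82 between Bdh1 and Slc16a1, again over points that fall into the 3 groups.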

How the data were processed

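RNA-seq of 9 mouse heart libraries was analysed. The authors deposited counts, whole numbers per gene and library, from reads filtered with fastp 0.18.0, and FPKM per library, which equal the count divided by 1 length per gene and the library total. The submitters' processing notes name Bowtie 0.12.2 and the builds mm8 and mm9 without a role, while the sources used here do not give the counting tool or the annotation. Of 22851 genes, 22820 were matched to symbols by GENCODE M21, whose GRCm38 coordinates are printed for the genes, not for the counted models.

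Each pair of groups was compared on its 6 libraries with edgeR 4.0.16 in R 4.3.3 (filterByExpr, TMM, quasi-likelihood F test), adjusted over all genes tested. A DEG had an adjusted p under 0.05 and at least a 1.5-fold change. Normalized CPM use TMM factors of all 9 libraries. Standard errors and intervals come from the F statistic. The steps were tested on simulated data. The labels carry no batch or date. Genes named are the 4 described, pathway genes that were DEGs, the 2 most abundant of each pathway list, the 3 nearest genes of each of the 4, and up to 3 leading markers. A few further genes or values were named after they were seen, and some genes of the lists are not reported here. The 4 genes and all lists were chosen with earlier results of these data known. Alternatives were DESeq2 1.42.0, limma 3.58.1 on log2(FPKM + 0.1), other normalizations, filters, fold limits and samples, a replicate block, a GC correction and each library left out. The other fold limits were looser and reuse the reported fit, so no DEG could be lost under them. Total counts of 29901300 to 39718680 limit precision for low genes only.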

Additional observations from a re-analysis of the deposited data

How the results depend on the processing

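In SPM compared to CK, Oxct1 and Bdh1 were lower DEGs in all 17 alternatives, of which the looser fold limits could not lose a call. Acat1 was a DEG in none of the comparisons. In DCM compared to CK, Oxct1 had a log2 fold change of -0.57 after the GC correction and of -0.66 to -0.52 with single libraries left out, and it kept an adjusted p under 0.05 in each. In SPM compared to DCM, Bdh1 was not a DEG with DESeq2 (-1.47, adjusted p = 0.0627), limma on FPKM (-1.58, adjusted p = 0.054) or the GC correction (-1.41, adjusted p = 0.0641), and lay between -2.02 and -1.10 with single libraries left out. Slc16a1 became a DEG only with no fold limit, at 0.31 in SPM compared to DCM and 0.24 in SPM compared to CK. Acat1 in SPM compared to CK turned to -0.017 with the GC correction.

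The number of DEGs over all genes was 625, 521 and 1342 in DCM compared to CK, SPM compared to DCM and SPM compared to CK, and 1497, 2408 and 3989 with no fold limit and 1100, 1299 and 2532 with a limit of 1.3. The GC correction left 134 DEGs in SPM compared to DCM. With single libraries left out the numbers ran from 427 to 704, from 56 (without SPM replicate 2) to 791 (without SPM replicate 3), and from 771 (without SPM replicate 2) to 1589. They were 73 without DCM replicate 2 and 280 without DCM replicate 1. Of the 15 pathway genes, 3 in DCM compared to CK and 5 in SPM compared to DCM were DEGs with no fold limit, 4 in SPM compared to DCM with a limit of 1.3, 0 in DCM compared to CK with limma and 1 in SPM compared to CK with the GC correction. With single libraries left out there were 0 to 1, 0 to 2 and 3 to 4.

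Signs turned for values near 0 that were no DEGs. With limma, Emb was at -0.023 and Sirt3 at -0.0011 in DCM compared to CK, and with the GC correction Sucla2 was at -0.19 in SPM compared to DCM. With single libraries left out, Acat2 ran from -0.057 to 0.31 and Emb from -0.057 to 0.22 in DCM compared to CK. Sucla2 ran from -0.026 to 0.093, Slc16a6 from -0.14 to 0.028 and Ppara from -0.023 to 0.15 in SPM compared to DCM, and Acat2 from -0.35 to 0.022 in SPM compared to CK. The GC correction also took Ppargc1a (0.53), Aacs (-0.51) and Emb (0.50) under the fold limit in SPM compared to CK.

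Residuals of libraries with the same replicate number correlated between -0.0746 and 0.205, with 2 of 9 pairs over 0.1. Those of libraries with other numbers correlated between -0.284 and 0.217, with 1 of 18 pairs over 0.1. The ranges overlap and the pairs are few, so these values neither show nor exclude a pairing by number. With the numbers as a replicate block, Oxct1 in DCM compared to CK was at -0.60 and Bdh1 in SPM compared to DCM at -1.56 (edgeR adjusted p = 0.00892), and no call on the 4 genes changed.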
